A study of Mus musculus with 4 samples.

Results

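Retinoic acid is made from vitamin A inside cells and acts on genes through nuclear receptors, and 9 genes that make it, break it down or respond to it were followed here in stroma of the mouse prostate. The 9 were fixed by name: Rdh10 and Dhrs3, which act on retinol and retinaldehyde, Aldh1a1, Aldh1a2 and Aldh1a3, which make retinoic acid, Cyp26b1, which degrades it, and the receptors Rara, Rarb and Rarg. The set holds no retinoid-binding protein; those are given with the other pathway genes. All 9 were found among the 26332 genes that could be named, and 8 reached the level needed for the test, at least 1 FPKM in 2 libraries. FPKM scales fragment numbers to the length of a transcript and to the fragments mapped in a library, so levels of different genes can be set side by side.

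The cells came from adult C57BL/6 mice and were sorted for Sca-1 on the surface and for the lack of lineage markers, CD24 and CD49f. No genotype, treatment or exact age is given in the labels. There were 2 libraries from distal ducts, whose tips form the ends of the lobes, and 2 from proximal ducts next to the urethra. The libraries are numbered 2 and 3 in both regions and are called distal 2, distal 3, proximal 2 and proximal 3. The design text gives the aim as identifying a kind of signalling from these cells. Whether separate or pooled animals gave the libraries is not in the labels, so p-values reflect only how far these 4 libraries spread, and that spread may be technical.

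Retinol is oxidised to retinaldehyde in a reversible step, and retinaldehyde is oxidised to retinoic acid in an irreversible one. Retinoic acid binds RAR proteins, which sit on DNA together with RXR partners, often at direct repeats of a hexamer, and Cyp26 enzymes remove it. Retinoids are known to act in the developing urogenital sinus and in prostate epithelium, and several of the genes that make or clear retinoic acid are themselves retinoic acid responsive.

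Libraries of the same number were more alike than libraries of the same region. Pearson's r of log2(FPKM + 1) across 11301 genes, which are not independent replicates, was 0.952 within number 2 and 0.952 within number 3, against 0.910 between the distal and 0.868 between the proximal libraries. All 10 stromal marker genes looked up, Pdgfra, Dcn and Ly6a (Sca-1) among them, exceeded 10 FPKM in every library, and their sum ran from 4880 to 6099 FPKM. Summed over 10 epithelial markers, distal 2 and distal 3 held 40.4 and 100.4 FPKM, proximal 2 held 61.5 FPKM and proximal 3 held 444 FPKM, with none at 0 in all libraries. For 6 secretory markers it was 187 and 257 against 104 and 328 FPKM, with Spink1 and Sbp listed at 0 throughout. Nearly all of each sum was Pbsn (98.6 and 137 against 73.7 and 236 FPKM) and Tgm4 (86.5 and 118 against 26.8 and 87.9 FPKM). For 7 smooth muscle markers it ran from 191 FPKM in proximal 3 to 389 FPKM in distal 2. Endothelial, leukocyte and Schwann cell or neuron lists (6, 6 and 5 genes) stayed at or below 10.9 FPKM in sum. Of 5 mesothelial markers Lrrn4 was listed at 0 throughout, Msln and Upk3b did not reach 1 FPKM, and Krt19, also an epithelial marker, and Wt1 made up the rest. In bulk samples, fewer cells of a type and less RNA per cell cannot be told apart.

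In the test over all genes, limma on log2(FPKM + 1) with Benjamini-Hochberg adjustment, 0 of the 8 tested members passed in either direction, as did 0% of the 11301 genes tested for higher proximal and 0% for higher distal values. At an unadjusted p under 0.05 (limma) 1 of the 8 members was found, Rdh10, against 361 or 3.19% of all genes in either direction and 0.903% with higher distal values. Among the 8 tested members the regions did not overlap for Aldh1a2, with both proximal libraries the higher ones (as for 13.0% of all genes). Nor did they for Rdh10, with both distal libraries the higher ones (as for 8.64% of all genes). The untested Cyp26b1 is described below. Both libraries numbered 3 were below both numbered 2 for 4 of the 8, Aldh1a1, Dhrs3, Rarb and Rarg (50.2% of all genes), and above them for 1, Aldh1a3 (20.3% of all genes). The log2 difference of proximal minus distal was above 0 for 7 of 8 members, as for 60.5% of all genes, with a median of 0.25 against 0.09 over all genes. Median ratio scaling between libraries moved the median of all genes to -0.01 and the share above 0 to 48.6%, and 4 of 8 members then lay above 0. Quantile normalization gave 46.8% of genes and 5 of 8 members.

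**Figure D1:**
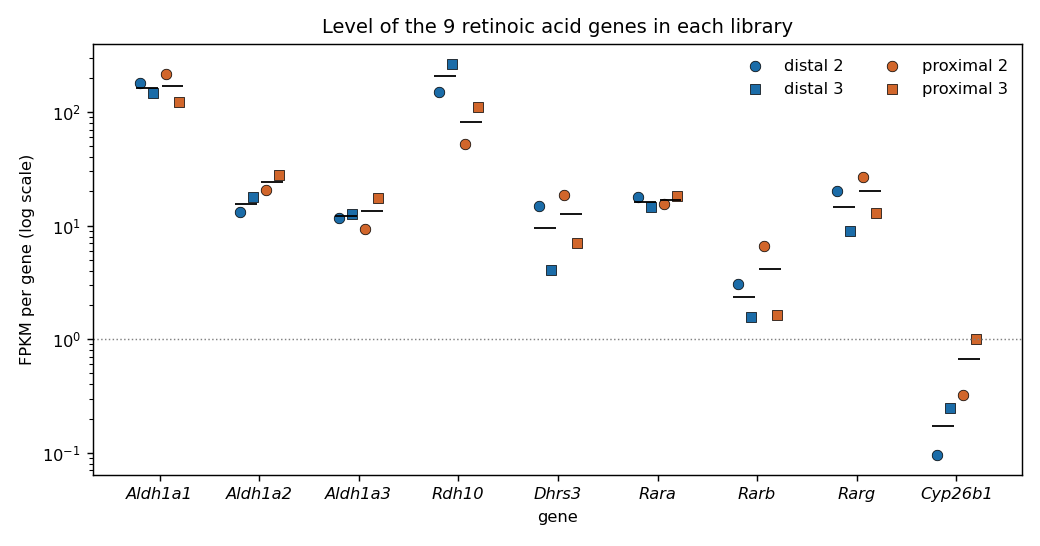
FPKM per gene on a log axis for the 9 genes in each of the 4 libraries. Circles are the libraries numbered 2, squares those numbered 3, blue is distal, orange is proximal, and black lines are the means of the 2 libraries of a region. Rdh10 is the gene whose distal points lie above both proximal points, and Cyp26b1 stays near or below the dotted line at 1 FPKM.

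By mean FPKM over the 4 libraries the order was Aldh1a1 (166 FPKM), Rdh10 (145 FPKM), Aldh1a2 (20.0 FPKM), Rarg (17.3 FPKM), Rara (16.6 FPKM), Aldh1a3 (12.8 FPKM), Dhrs3 (11.2 FPKM), Rarb (3.24 FPKM) and Cyp26b1 (0.419 FPKM). Aldh1a1 and Rdh10 overlapped in their ranges over libraries, and so did each pair of neighbours from Aldh1a2 down to Rarb. The range of Rdh10 lay above that of Aldh1a2, and the range of Rarb lay above that of Cyp26b1.

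Rdh10, the retinol dehydrogenase that carries out much of the first oxidation step in the embryo, had the largest difference between regions among the 8 tested members on the log2(FPKM + 1) scale. It was measured at 150 FPKM for distal 2 and 268 FPKM for distal 3, against 52.1 FPKM for proximal 2 and 110 FPKM for proximal 3. Both distal values lay above both proximal values, and within each region the library numbered 3 was the higher one. The mean was 209 ± 83.3 FPKM for distal and 81.0 ± 40.9 FPKM for proximal stroma (SD, n = 2 each), 2.58-fold higher in distal. The log2 difference of proximal minus distal was -1.39 ± 0.51 (SE) and did not pass the test (adjusted p = 0.9999, limma). It was -1.51 between the libraries numbered 2 and -1.28 between those numbered 3. Without proximal replicate 2 it was -0.86, and without proximal replicate 3 it was -1.92. The authors' bounds on Rdh10 spanned 1.47% to 3.62% of the value on either side, far less than the spread between libraries. Rdh10 spans 16105774 to 16133734 of chromosome 1 (plus strand, mm10).

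Dhrs3, which reduces retinaldehyde back to retinol, was measured at 15.0 FPKM for distal 2 and 4.06 FPKM for distal 3, against 18.5 FPKM for proximal 2 and 7.02 FPKM for proximal 3. The regions overlapped, and both libraries numbered 3 were below both numbered 2. The mean was 9.54 ± 7.74 FPKM for distal and 12.8 ± 8.13 FPKM for proximal stroma (SD, n = 2 each), and the log2 difference of 0.47 ± 0.75 (SE) was smaller than its error (adjusted p = 0.9999, limma). It turned to -0.36 without distal replicate 3 and to -0.17 without proximal replicate 2. It rose to 1.31 without distal replicate 2 and to 1.12 without proximal replicate 3. Dhrs3 spans 144892827 to 144928209 of chromosome 4 (plus strand, mm10).

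Set against each other within a library, which removes any scaling between libraries, Rdh10 exceeded Dhrs3 in all 4 libraries. The ratio of their FPKM was 9.97 in distal 2, 65.8 in distal 3, 2.81 in proximal 2 and 15.7 in proximal 3. The lowest ratio was thus in a proximal and the highest in a distal library, but the regions overlapped. On the log2 scale the mean ratio was 4.68 ± 1.93 in distal and 2.73 ± 1.75 in proximal stroma (SD, n = 2 each), a difference of -1.95 (two-sided exact permutation p = 0.667, in a design of 2 against 2 libraries that cannot reach 0.05). Leaving out distal replicate 3 gave -0.59, proximal replicate 2 gave -0.71, distal replicate 2 gave -3.31 and proximal replicate 3 gave -3.19.

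Aldh1a1 is a retinaldehyde dehydrogenase that is abundant in many adult tissues and also clears other aldehydes. It was measured at 179 FPKM for distal 2 and 148 FPKM for distal 3, against 215 FPKM for proximal 2 and 123 FPKM for proximal 3. The proximal values lay on both sides of the distal ones, with means of 163 ± 21.9 FPKM for distal and 169 ± 64.5 FPKM for proximal stroma (SD, n = 2 each). The log2 difference was 0.001 ± 0.39 (SE; adjusted p = 0.9999, limma), and it moved to -0.14 without distal replicate 3, to -0.40 without proximal replicate 2 and to -0.13 under median ratio scaling. Without distal replicate 2 it was 0.14, and without proximal replicate 3 it was 0.40. Its neighbour Aldh1a7, a close copy with which fragments could be divided in an uncertain way, did not exceed 1.62 FPKM. Aldh1a1 spans 20492715 to 20643465 of chromosome 19 (plus strand, mm10).

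Between 86.6% and 89.8% of the Aldh1a1 level in each library was in 1 transcript, which starts at 20601982. The rest was in 3 shorter transcripts that start at 20492715 and end by 20566853, before the main transcript begins. The 250 bases before the RefSeq start nearest to the main transcript, at 20601968, are shown because most of the Aldh1a1 level was in that transcript (chr19:20601718-20601967, plus strand, GRCm38.p6, the assembly of mm10; sequence from RefSeq). Capitals mark the only match, on either strand, to a hexamer of the kind that makes up retinoic acid response elements. The hexamers searched were AGGTCA as the consensus and, as variants of it, AGTTCA, then the related form GGGTCA, and as the last form GGTTCA. At least 1 such hexamer was found in 38.6% of all 32851 windows of this length.
Aldh1a1: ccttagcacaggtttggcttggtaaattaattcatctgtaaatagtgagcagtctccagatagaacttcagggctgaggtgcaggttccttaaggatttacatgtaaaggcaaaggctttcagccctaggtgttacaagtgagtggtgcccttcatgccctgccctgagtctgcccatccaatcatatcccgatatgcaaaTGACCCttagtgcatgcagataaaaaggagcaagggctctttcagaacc

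Aldh1a2, the retinaldehyde dehydrogenase best known from embryonic mesenchyme, was measured at 13.1 FPKM for distal 2 and 18.0 FPKM for distal 3, against 20.6 FPKM for proximal 2 and 28.2 FPKM for proximal 3. Both proximal values lay above both distal values, and within each region number 3 was the higher library. The mean was 24.4 ± 5.41 FPKM for proximal and 15.5 ± 3.41 FPKM for distal stroma (SD, n = 2 each), 1.57-fold higher in proximal. The log2 difference was 0.62 ± 0.38 (SE; adjusted p = 0.9999, limma), with 0.61 between the libraries numbered 2 and 0.62 between those numbered 3. Leaving out proximal replicate 3 gave 0.40 and leaving out proximal replicate 2 gave 0.84. Proximal 3, with the highest Aldh1a2 value, also had the highest summed epithelial markers (444 FPKM). Distal 2, distal 3 and proximal 2 held sums of 40.4, 100.4 and 61.5 FPKM. The part of epithelial cells in the Aldh1a2 level was not tested. Aldh1a2 spans 71215789 to 71296243 of chromosome 9 (plus strand, mm10).

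Aldh1a3, a retinaldehyde dehydrogenase of epithelia and sensory placodes, was measured at 11.7 FPKM for distal 2 and 12.8 FPKM for distal 3, against 9.31 FPKM for proximal 2 and 17.4 FPKM for proximal 3. The distal libraries lay between the proximal ones. Proximal 3, the highest, was also the library with the highest summed epithelial markers (444 FPKM against 40.4 to 100.4 FPKM in the others), and the part of those cells in the Aldh1a3 level was not tested. Means were 12.3 ± 0.728 FPKM for distal and 13.4 ± 5.75 FPKM for proximal stroma (SD, n = 2 each). The log2 difference was 0.06 ± 0.44 (SE; adjusted p = 0.9999, limma), with -0.36 without proximal replicate 3, -0.06 under median ratio scaling and -0.08 under quantile normalization. Without proximal replicate 2 it was 0.48. Aldh1a3 spans 66390890 to 66427517 of chromosome 7 (minus strand, mm10).

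The 3 dehydrogenases together summed to 204 FPKM for distal 2 and 179 FPKM for distal 3, against 245 FPKM for proximal 2 and 169 FPKM for proximal 3. Means were 191 ± 17.7 FPKM for distal and 207 ± 53.4 FPKM for proximal stroma (SD, n = 2 each), and the regions overlapped (log2 of the proximal over the distal mean 0.11, two-sided exact permutation p = 1). That value was 0.36 without proximal replicate 3 and 0.21 without distal replicate 2, 0.02 without distal replicate 3, -0.18 without proximal replicate 2, and -0.04 under median ratio scaling. Aldh1a1 made up most of the sum in every library, from 73.0% in proximal 3 to 87.8% in distal 2. The share of Aldh1a2 was 6.44% and 10.05% in the distal and 8.41% and 16.7% in the proximal libraries, and that of Aldh1a3 ran from 3.81% to 10.3%. None of the 3 shares separated the regions.

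**Figure D2:**
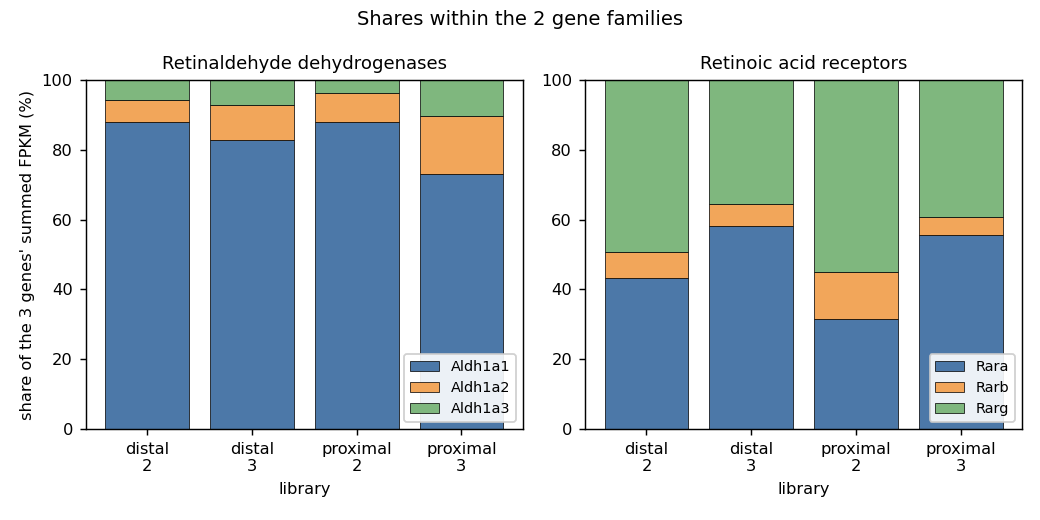
Share in percent of the summed FPKM of Aldh1a1, Aldh1a2 and Aldh1a3 (left) and of Rara, Rarb and Rarg (right) in each library; each bar adds up to the whole family. Aldh1a1 fills 73.0% to 87.8% of the left bars, while on the right Rarg is above Rara in the libraries numbered 2, Rara is above Rarg in those numbered 3, and Rarb is the smallest.

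Rara, the most widely expressed receptor of the family, was measured at 17.8 FPKM for distal 2 and 14.6 FPKM for distal 3, against 15.5 FPKM for proximal 2 and 18.3 FPKM for proximal 3. The 4 values lay close together, with means of 16.2 ± 2.28 FPKM for distal and 16.9 ± 1.98 FPKM for proximal stroma (SD, n = 2 each). The log2 difference was 0.06 ± 0.35 (SE; adjusted p = 0.9999, limma). It was -0.08 without distal replicate 3, -0.05 without proximal replicate 3, -0.06 under median ratio scaling, -0.03 under quantile normalization and -0.20 with the most abundant transcript alone. Without distal replicate 2 it was 0.20, and without proximal replicate 2 it was 0.17. Rara spans 98927818 to 98974942 of chromosome 11 (plus strand, mm10).

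The shares of the 2 start sites in use within Rara did not overlap between the regions (a split chosen after its values were seen). For Aldh1a1, Rarb and Rarg, the other members with more than 1 start in use, the shares overlapped. How often such shares separate the regions over all genes was not computed. The upstream start at 98937696 gave 3.10 and 3.75 FPKM in distal 2 and distal 3 and 5.35 and 6.70 FPKM in proximal 2 and proximal 3. The downstream start at 98960471 gave 14.7 and 10.8 FPKM in the distal and 10.2 and 11.6 FPKM in the proximal libraries, which overlapped. The upstream start thus held 17.4% and 25.7% of Rara in the distal and 34.4% and 36.6% in the proximal libraries. Both proximal shares lay above both distal shares (two-sided exact permutation p = 0.3333, the smallest that 2 against 2 libraries can give). The other 3 annotated Rara transcripts were listed at 0 in all libraries, and the division of fragments among overlapping transcripts is an estimate by the authors' software. The 250 bases before the upstream start are shown because that start carries the split (chr11:98937446-98937695, plus strand, GRCm38.p6, sequence from RefSeq). They hold none of the 4 hexamers on either strand, so no base is in capitals.
Rara: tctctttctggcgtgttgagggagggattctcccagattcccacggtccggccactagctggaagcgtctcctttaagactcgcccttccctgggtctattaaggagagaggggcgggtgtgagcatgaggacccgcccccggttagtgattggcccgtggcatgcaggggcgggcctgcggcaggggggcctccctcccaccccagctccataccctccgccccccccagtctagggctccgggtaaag

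**Figure D3:**
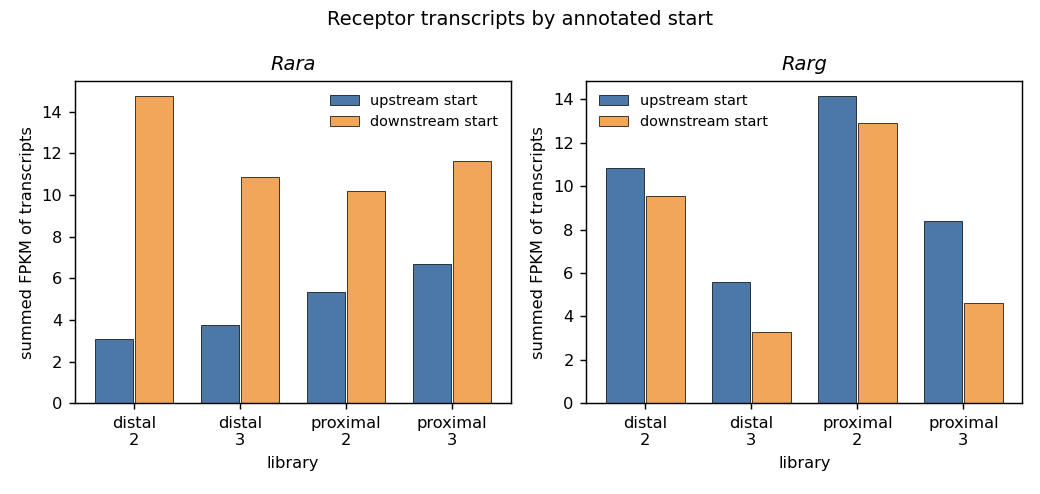
Summed FPKM of the transcripts that begin at the upstream and the downstream start of Rara (left) and Rarg (right) in each library. The upstream Rara bars stand at 3.10 and 3.75 FPKM in distal and at 5.35 and 6.70 FPKM in proximal libraries, while both Rarg bars are lower in the libraries numbered 3.

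Rarg, a receptor prominent in skin and mesenchyme, was measured at 20.4 FPKM for distal 2 and 8.90 FPKM for distal 3, against 27.1 FPKM for proximal 2 and 13.0 FPKM for proximal 3. The regions overlapped, and both libraries numbered 3 lay below both numbered 2. Means were 14.6 ± 8.13 FPKM for distal and 20.0 ± 9.96 FPKM for proximal stroma (SD, n = 2 each). The log2 difference was 0.45 ± 0.57 (SE; adjusted p = 0.9999, limma), with -0.11 without distal replicate 3 and -0.06 without proximal replicate 2. Both annotated starts were used: the upstream one held 53.1% and 63.1% of Rarg in the distal and 52.2% and 64.5% in the proximal libraries, so its share did not separate the regions. Rarg spans 102234938 to 102257517 of chromosome 15 (minus strand, mm10).

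Rarb, a receptor whose own gene is switched on by retinoic acid, was the lowest of the 3 receptors. It was measured at 3.09 FPKM for distal 2 and 1.58 FPKM for distal 3, against 6.64 FPKM for proximal 2 and 1.65 FPKM for proximal 3. Proximal 2 was the highest library, and the other proximal library lay within the distal range. Means were 2.33 ± 1.06 FPKM for distal and 4.15 ± 3.53 FPKM for proximal stroma (SD, n = 2 each). The log2 difference was 0.47 ± 0.65 (SE; adjusted p = 0.9999, limma), with 0.90 between the libraries numbered 2, 0.04 between those numbered 3 and -0.29 without proximal replicate 2. Without proximal replicate 3 it was 1.23. In GENCODE, Rarb spans 16430839 to 16819156 of chromosome 14 (minus strand, mm10), and 2 further transcripts, named by the RefSeq ends, start at 17082331 and held 0% to 34.7% of its level. The 3′ end of Rarb overlaps 4624 bases of Top2b on the other strand (4.41 to 12.6 FPKM), so in this unstranded library type reads of the overlap cannot be told apart.

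Between 65.3% and 100% of the Rarb level in each library came from transcripts that start at 16575476. The 250 bases before that start are shown because they hold the response element for which Rarb is known (chr14:16575477-16575726, minus strand, GRCm38.p6, sequence from RefSeq). Capitals mark a direct repeat of 2 hexamers from the 4 named above with 5 bases between them, written 5′ to 3′ on the strand of the gene. A further GGGTCA in this window, outside the repeat, is left in lower case.
Rarb: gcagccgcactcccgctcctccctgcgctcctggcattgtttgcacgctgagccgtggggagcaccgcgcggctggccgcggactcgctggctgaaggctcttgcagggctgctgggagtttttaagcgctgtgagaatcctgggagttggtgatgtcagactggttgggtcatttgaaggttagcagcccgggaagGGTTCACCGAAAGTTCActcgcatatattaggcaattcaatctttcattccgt
The repeat lies 36 bases before the start. Both strands were searched with any of the 4 hexamers in either place, and 29 of 32851 windows, or 0.0883%, held such a repeat, Rarb being the only one of the 7 members with an entry. A further match among the pathway genes stood before Cyp26a1, on the opposite strand, 15 bases before its start (chr19:37697776-37697792). The sites are set side by side, with the hexamers in capitals.
Rarb site: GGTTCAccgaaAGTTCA
Cyp26a1 site: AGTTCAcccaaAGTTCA
These matches are letters in a sequence and say nothing about binding in these cells; Rarb itself reached at most 6.64 FPKM and Cyp26a1 at most 0.248 FPKM. Rdh10 and Aldh1a3 are the members with no entry.

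The 3 receptors together summed to 41.3 FPKM for distal 2 and 25.1 FPKM for distal 3, against 49.2 FPKM for proximal 2 and 32.9 FPKM for proximal 3. Means were 33.2 ± 11.5 FPKM for distal and 41.1 ± 11.5 FPKM for proximal stroma (SD, n = 2 each), and the regions overlapped (log2 of the proximal over the distal mean 0.31, two-sided exact permutation p = 0.667). The value was 0.71 without distal replicate 2, 0.57 without proximal replicate 3, -0.008 without distal replicate 3 and -0.01 without proximal replicate 2. Rara held 31.5% to 58.2% of the sum, Rarg 35.5% to 55.0% and Rarb 5.003% to 13.5%. Rarg was above Rara in both libraries numbered 2 and below it in both numbered 3.

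Cyp26b1, the retinoic acid hydroxylase of mesenchyme in many organs, stood at 0.0952 FPKM for distal 2 and 0.2496 FPKM for distal 3, against 0.326 FPKM for proximal 2 and 1.01 FPKM for proximal 3. Both proximal values lay above both distal values (as for 13.0% of the genes tested), with a ratio of means of 3.86. But only proximal 3 reached 1 FPKM, so Cyp26b1 did not enter the test. Proximal 3 also had the highest epithelial markers (444 FPKM in sum), whose part in the Cyp26b1 level was not tested. The authors' bounds spanned 17.5% to 55.7% of the value on either side. The related Cyp26a1 was listed at 0 in distal 2 and stood at 0.0185 FPKM in distal 3, with 0.248 FPKM in proximal 2 and 0.239 FPKM in proximal 3, and Cyp26c1 did not exceed 0.0526 FPKM. Cyp26b1 spans 84571414 to 84593908 of chromosome 6 (minus strand, mm10).

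**Figure D4:**
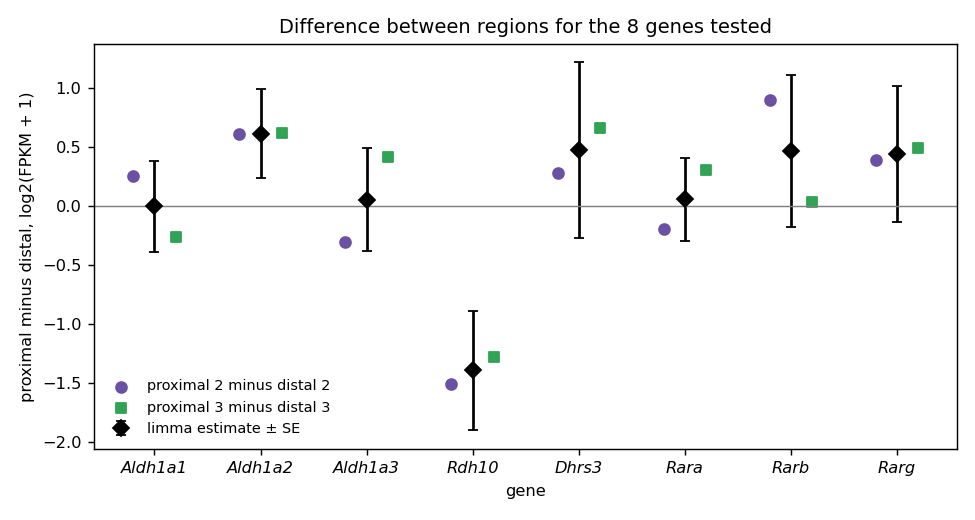
Difference of proximal minus distal on the log2(FPKM + 1) scale for the 8 genes tested. Black diamonds are limma estimates with their SE, circles the difference between the libraries numbered 2 and squares that between the libraries numbered 3. Rdh10 stands at -1.39 with both single differences below -1, and Aldh1a2 at 0.62 with both near it, while for Aldh1a1, Aldh1a3 and Rara the single differences lie on both sides of 0.

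Other genes of the pathway were read from lists, and 36 of the 63 that were found entered the test. Of these 0 passed in either direction (limma), 1 reached an unadjusted p under 0.05 (3.19% of all genes), and 23 had a log2 difference above 0 and 13 below (above 0 for 60.5% of all genes), with a median of 0.14 against 0.09 over all genes. Both proximal libraries lay above both distal ones for 3 of them (13.0% of all genes) and below for 5 (8.64% of all genes).

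Among 5 tested genes for retinoid uptake and binding, 4 differences lay above 0 and 1 below. Stra6, the membrane receptor that takes up retinol from its carrier in blood, was measured at 109 FPKM for distal 2 and 84.8 FPKM for distal 3, against 78.6 FPKM for proximal 2 and 37.7 FPKM for proximal 3. Both distal values of Stra6 lay above both proximal values, as for Rdh10, but here number 3 was the lower library in each region (log2 difference -0.81 ± 0.45, SE). Fabp5, a carrier of fatty acids and retinoic acid, stood at 5.94 and 15.2 against 12.8 and 29.9 FPKM (0.96 ± 0.63, SE), and Crabp2, which hands retinoic acid to its receptors, at 1.58 and 4.18 against 1.88 and 8.58 FPKM (0.52 ± 0.74, SE). Both were highest in proximal 3, the library with the highest epithelial markers (444 FPKM in sum), whose part in these levels was not tested.

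Among 12 other tested enzymes of retinol and retinaldehyde, 10 differences lay above 0 and 2 below. Aldh1a7 stood at 0.0968 FPKM for distal 2 and 0.283 FPKM for distal 3, against 1.02 FPKM for proximal 2 and 1.62 FPKM for proximal 3 (0.95 ± 0.36, SE). It was the gene with an unadjusted p under 0.05 (limma). Aldh1a7 reached 1 FPKM only in the proximal libraries and entered the test through them alone, so its p-value is not independent of that filter. Adh1, an alcohol dehydrogenase that oxidises retinol, stood at 17.3 and 12.6 against 29.0 and 19.3 FPKM (0.64 ± 0.40, SE), and Rdh14 at 7.45 and 1.74 against 12.4 and 3.57 FPKM (0.70 ± 0.80, SE). For Aldh1a7 and Adh1 the proximal values lay above the distal ones; for Rdh14 they overlapped.

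Of 11 tested RXR receptors and co-regulators, 4 differences lay above 0 and 7 below. Nrip1, a corepressor that is itself retinoic acid responsive, stood at 17.6 FPKM for distal 2 and 43.9 FPKM for distal 3, against 16.2 FPKM for proximal 2 and 23.1 FPKM for proximal 3 (log2 difference -0.51 ± 0.53, SE). Ppard, a receptor for fatty acids, stood at 2.37 and 2.69 against 0.846 and 2.35 FPKM (-0.50 ± 0.46, SE). The distal values of Ppard lay above its proximal values, while those of Nrip1 overlapped.

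Of 12 tested genes known to respond to retinoic acid, members left out, 7 differences lay above 0 and 5 below, with a median of 0.09, the same as over all genes. Rarres2, which encodes the secreted protein chemerin, stood at 286 FPKM for distal 2 and 215 FPKM for distal 3, against 457 FPKM for proximal 2 and 333 FPKM for proximal 3 (0.65 ± 0.35, SE), with both proximal values above both distal ones. Nr2f1, an orphan nuclear receptor, stood at 5.59 and 1.57 against 8.22 and 4.74 FPKM (0.82 ± 0.61, SE). Stra6, given above, belongs to this list too.

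**Figure D5:**
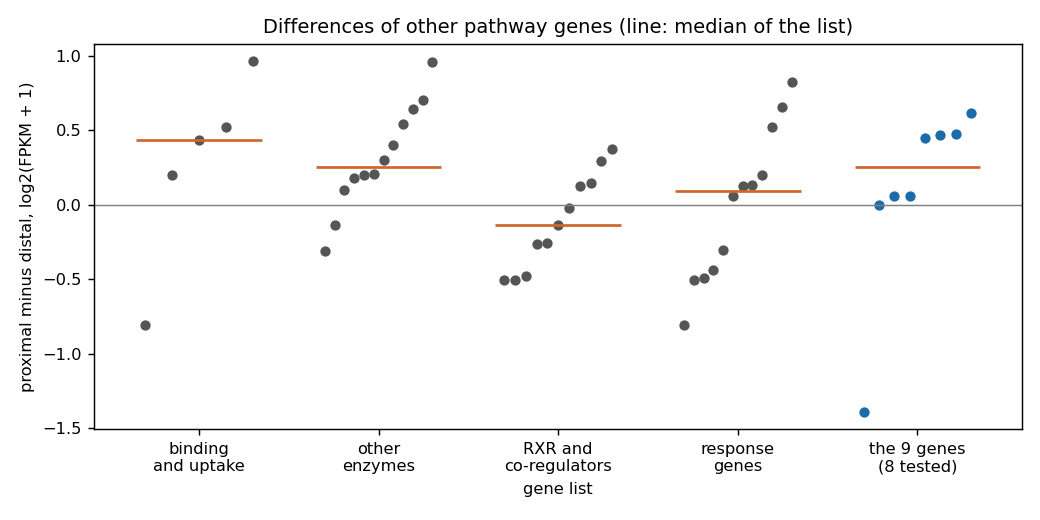
Difference of proximal minus distal on the log2(FPKM + 1) scale for each tested gene of the other pathway lists (grey points) and of the 8 tested members (blue points), with the median of each list as an orange line. Genes that belong to 2 lists appear in both; the median of the members stands at 0.25, and the lowest blue point is Rdh10 at -1.39.

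The genes whose pattern over the 4 libraries was most like that of a member were sought among 7436 others with a mean of at least 5 FPKM, by the Euclidean distance between log2(FPKM + 1) values centred on their own mean. Nearest to Rdh10 were Ccrl2 (distance 0.217), Penk (0.240), Sod2 (0.273), Nfkb2 (0.285) and Steap4 (0.295). Ccrl2, for example, stood at 68.8 FPKM for distal 2 and 147 FPKM for distal 3, against 25.5 FPKM for proximal 2 and 49.5 FPKM for proximal 3. Nearest to Aldh1a2, which had the next largest difference among the tested members on that scale, were Gtf3c5 (0.0804), Tmem140 (0.120), Ddit3 (0.120), Sema3c (0.131) and Dusp4 (0.158).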

How the data were processed

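RNA-seq was done on 4 libraries. Amplified cDNA, per the labels' protocols, was made with the SMART-Seq v4 kit, which does not mark strand. Cufflinks 0.0.6, TopHat2 0.6, bcl2fastq 1.8.3 and mm10 are named in the submitters' processing notes, with no roles given. Each deposited file lists transcripts with their FPKM, its bounds and a coverage signal, per the file headers. No counts are in them, and depth is unknown. The ratio of the deposited coverage signal to FPKM had medians of 5.22 to 6.34, and 10174 to 11490 genes reached 1 FPKM.

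Of the 63241 transcripts, most were named by position in GENCODE M21 (span overlap times length similarity of at least 0.8, ends within 100 bp of exons of 1 gene, or overlap with 1 gene only), and 925 more by both ends of a RefSeq gene. Together 88.16% were named, and FPKM was summed per gene. Genes with a failed or capped estimate (7) were left out. Genes at 1 FPKM in at least 2 libraries (11301) entered as log2(FPKM + 1), a scale that understates fold changes of low genes, into limma 3.58.1 in R 4.3.3 (region as the only term, mean trend, two-sided, Benjamini-Hochberg, threshold 0.05). The fit was tested on simulated data with independent noise in each library. No effect shared by libraries of the same number was simulated, so that test does not cover one. Single values were tested by exact permutation (scipy 1.17.1, Python 3.11.15), where 2 against 2 libraries cannot pass the threshold, so no adjustment was made. The bounds cover estimation within a library only.

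The members and lists were chosen with earlier results of these data known. The text names all 9 members and, per other list, the 3 tested genes with the largest difference (1 of them is not reported here), and the 5 genes most like Rdh10 and Aldh1a2. Alternatives were other pseudocounts, filters, scalings, transcript choices, a block and leaving out each library.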

Additional observations from a re-analysis of the deposited data

How the results depend on the processing

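With the library number as a replicate block, 449 genes passed (3.97% of genes, limma), 307 higher in proximal and 142 (1.26%) higher in distal stroma. Of the members 1 passed, Rdh10, with a log2 difference of -1.39 and an adjusted p of 0.0153 (limma); the next smallest was Aldh1a2 at 0.103. Of the other pathway genes, Fabp5 (adjusted p = 0.0329, limma) and Aldh1a7 (adjusted p = 0.0440, limma) passed, both higher in proximal stroma. Aldh1a7 met the filter of 1 FPKM in 2 libraries only through the proximal libraries, so its result is not independent of that filter. Across genes the deviations of same-numbered libraries from their region's mean had r = 0.816, but no label says what a number marks, so the block is an alternative only. Without 1 library at a time, 0 to 41 genes passed (41 without distal replicate 2 and 26 without distal replicate 3) and 0 members. The members' log2 differences then ran from -1.92 to -0.86 for Rdh10, 0.40 to 0.84 for Aldh1a2, -0.40 to 0.40 for Aldh1a1, -0.36 to 0.48 for Aldh1a3, -0.36 to 1.31 for Dhrs3, -0.076 to 0.20 for Rara, -0.29 to 1.23 for Rarb and -0.11 to 1.001 for Rarg. The summed dehydrogenases ran from -0.18 to 0.36, the summed receptors from -0.01 to 0.71 and the Rdh10 to Dhrs3 ratio from -3.31 to -0.59. Such fits keep 1 library in a region and so mix region with number. Signs turned under median ratio scaling for Aldh1a1 (-0.13), Aldh1a3 (-0.055) and Rara (-0.058), under quantile normalization for Aldh1a3 (-0.078) and Rara (-0.026), and with the most abundant transcript alone for Aldh1a1 (-0.022) and Rara (-0.20); the cause was not tested. The pseudocount of 0.1, the other filters and naming by GENCODE alone (added after seeing the data) gave 0 called genes and turned the sign of no member tested (Rarb did not pass the filter on a mean of 5 FPKM). Depth limits the low genes, but its size is unknown.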

Other observations

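For 3 partners of the retinoic acid receptors (chosen after their values were seen) both libraries numbered 3 lay below both numbered 2, as for 50.2% of all genes. Rxra, the main RXR partner, stood at 8.23 FPKM for distal 2 and 9.58 FPKM for proximal 2, against 1.20 FPKM for distal 3 and 1.34 FPKM for proximal 3. The corepressor Ncor1 stood at 90.1 and 91.7 FPKM in the libraries numbered 2 and at 16.2 and 10.7 FPKM in those numbered 3, and the coactivator Ncoa1 at 21.2 and 28.9 against 3.22 and 3.69 FPKM. Other partners were higher in both libraries numbered 3, as were 20.3% of all genes. Examples are Nrip1, given above, and Ncoa3 at 9.98 and 7.87 FPKM against 7.22 and 7.44 FPKM. What a number stands for is not given in the sources used here.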
